A study of Mus musculus with 17 samples.

Results

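The MHC class I and immunoproteasome genes described here were 10 genes out of the 24327 in each expression table: H2-K1, H2-D1, B2m, Tap1, Tap2, Tapbp, Psmb8, Psmb9, Psmb10 and Nlrc5. They were chosen by name, as the classical class I chains, the peptide transporter with its loading factor, the inducible proteasome subunits and the class I transactivator, and each was found once in both tables. Whole mouse lungs from 5 genotype groups had been profiled by bulk RNA-seq in 17 libraries, in 2 experiments that were tabulated separately. In the first experiment, 3 libraries of the Nlrp3 mutant, labelled LysMcre;Nlrp3A350V, were set against 3 labelled control. In the second, 3 libraries of an Il18r1 het mutant, labelled LysMcre;Nlrp3A350V;Il181r+/-, and 4 of an Il18r1 null mutant, labelled LysMcre;Nlrp3A350V;Il181r-/-, were set against 4 labelled Il18r1 control. All 3 mutant groups carried LysMcre and the Nlrp3 A350V allele. NLRP3 is an inflammasome sensor, A350V a missense allele that makes it overactive, and LysMcre a Cre driver active in myeloid cells and known to recombine in part of the alveolar type II epithelium as well. Il18r1 encodes the ligand-binding chain of the IL-18 receptor. The labels do not say which of these alleles the controls carried, and give neither age, sex nor litter. Whether 2 libraries of a group are 2 animals is not stated, and p-values therefore cover the spread between libraries alone, possibly a technical one.

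MHC class I molecules display peptides from inside the cell on its surface, where CD8 T cells and NK cells read them. The peptides are cut by the proteasome, carried into the endoplasmic reticulum by the transporter TAP and loaded, with tapasin's help, onto a heavy chain paired with β2-microglobulin. Interferon-gamma, acting in part through IRF1, is known to raise these genes together, to replace the catalytic subunits of the standard proteasome by those of the immunoproteasome, and to induce NLRC5, which binds class I promoters through RFX, CREB/ATF and NF-Y factors. In lung, class I is carried by most cell types, epithelium, endothelium and leukocytes among them.

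Of the 10 members, 7 lie on mouse chromosome 17 inside or at the border of the major histocompatibility complex, 2 on chromosome 8 (Psmb10 at 105935735 to 105938444 and Nlrc5 at 94434356 to 94527272) and B2m on chromosome 2 (122147686 to 122153083), in GENCODE positions on GRCm38. H2-K1 (33996017 to 34000347) and H2-D1 (35262730 to 35267499) stand 1.27 Mb apart from outer end to outer end. Psmb9, Tap1, Psmb8 and Tap2 follow each other within 34.3 kb (34181987 to 34216321), and the gene models of Psmb9 and Tap1, on opposite strands, overlap by 212 bases. Reads in that overlap cannot be told apart between Psmb9 and Tap1 unless the counting used the strand, which no source used here states. H2-K1 and H2-D1 share long stretches with other class I genes, and how reads that match several of them were counted was not given either, so their levels are uncertain to that extent.

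Promoters, from 250 bases before to 50 after a RefSeq start on GRCm38.p6, were held for 8 of the 10 members. Both strands were searched for a CRE-like core (TGACG), the box that NF-Y binds (CCAAT), a kB-like motif (GGG, then after 2 free bases TT, then after 1 free base CC), an ISRE-like pair (GAAA, then after 2 free bases GAAA again) and a GAS-like motif (TTC, then after 3 free bases GAA). The shares of all 32851 promoters that held them were 20.8%, 37.4%, 4.79%, 3.44% and 8.30%. The 3 members whose products form the displayed molecule, H2-K1, H2-D1 and B2m, each held the core, and 25 bases further on, start to start, a CCAAT box read from the other strand (ATTGG). That spacing was found in 0.0944% of all promoters, those of 27 genes. The distance counted was the one these 3 members hold, so the share is a description and not a test. The stretch is shown for all 3, with core and box in capitals, since it is what the promoters of genes on different chromosomes share:
H2-K1: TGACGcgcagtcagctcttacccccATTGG
H2-D1: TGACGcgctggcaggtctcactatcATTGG
B2m: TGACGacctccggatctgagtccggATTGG

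These 30-base stretches lie at chr17:34000359-34000388 on the minus strand, chr17:35262993-35263022 on the plus strand and chr2:122147609-122147638 on the plus strand. H2-K1 and H2-D1 had the same base at 23 of the 30 positions, and B2m matched H2-K1 at 13 and H2-D1 at 12. Upstream of the stretch each of the 3 promoters also held a kB-like motif, which B2m carries on the other strand, overlapping neither the core nor the box. B2m held an ISRE-like pair as well, the only member promoter to do so. The longer stretches of H2-K1 (chr17:34000349-34000483, minus strand, 150 to 16 bases before the start) and B2m (chr2:122147514-122147648, plus strand, 173 to 39 bases before it) show these motifs in order, in capitals:
H2-K1: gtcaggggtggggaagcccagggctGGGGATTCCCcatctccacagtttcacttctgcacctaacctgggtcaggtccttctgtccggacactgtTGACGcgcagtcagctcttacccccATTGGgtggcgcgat
B2m: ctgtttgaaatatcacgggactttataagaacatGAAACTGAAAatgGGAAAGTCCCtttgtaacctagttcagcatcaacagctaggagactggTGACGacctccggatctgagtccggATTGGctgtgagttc

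The windows of Tap1 and Psmb9 share 275 of their 300 bases, read from opposite strands, and hold 1 core and 1 CCAAT box. Psmb8 held a GAS-like motif, Tapbp 2 CCAAT boxes, and the Psmb10 window none of the 5. A match is a description of these letters and not a binding site, and binding was not measured here.

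Values are FPKM, a level per gene length and per library size. Depth could be read only as a ratio to library 1 of the controls in each table, from the most common ratio of values under 0.3 FPKM. It was 0.790 to 1 for the 6 libraries of the first experiment and 0.747 to 1.15 for the 11 of the second, and 8.81% to 32.4% of low values stood at that ratio. Il18r1 was at 29.9 to 31.2 FPKM in the het mutants, 6.98 to 9.00 in the null mutants and 13.4 to 15.0 in the Il18r1 controls. The het value, above that of the controls, and the transcript left in the null mutant do not follow from the copies in the labels, and which stretch of the gene the allele removes is not stated, so these levels do not check the labels. Xist, made in female cells, was at 37.7 FPKM or more in 8 libraries, those of the Nlrp3 and het mutants with null libraries 2 and 4, while the other 9 held Y-linked transcripts. Genotype and sex therefore cannot be told apart in Nlrp3 mutant against Control and in het mutant against Il18r1 control, for any gene below. Library 3 of the het mutant and library 1 of the null mutant stood apart from their groups in the member genes. Calls of the members are therefore also given without them. Most list and marker counts and all correlations below rest on all libraries, these included.

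All 10 members were measured above 0 in every library and all passed the minimum for testing, 1 FPKM in at least 3 libraries of a table. In the second experiment Nlrc5 passed it only through the het mutants, where it was highest. Outside them it reached 1 FPKM only in Il18r1 control library 2 (1.09 FPKM) and null library 1 (1.55 FPKM). B2m was the most abundant member in every group, with means of 799 FPKM in the Nlrp3 mutants against 593 FPKM in the Controls, and of 1302 FPKM in the het mutants, 568 FPKM in the null mutants and 474 FPKM in the Il18r1 controls. H2-K1 and H2-D1 came next and their libraries overlapped in every group but the Nlrp3 mutant, where H2-D1 was above H2-K1. Tapbp and then Psmb8 followed in every group except the het mutant, in which Tap1 stood between them and overlapped both. Psmb8 also overlapped Psmb9 there, the next member, while Tapbp did not overlap H2-D1, the member above it. Tap1, Tap2, Psmb9 and Psmb10 had means between 16.7 and 28.2 FPKM in the other 4 groups and neighbours in that order overlapped. Nlrc5 was the lowest member in each group, on average at 1.81 FPKM in the Nlrp3 mutants, 1.66 FPKM in the Controls, 6.87 FPKM in the het mutants, 0.71 FPKM in the null mutants and 0.618 FPKM in the Il18r1 controls, and never overlapped the member above it.

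**Figure D1:**
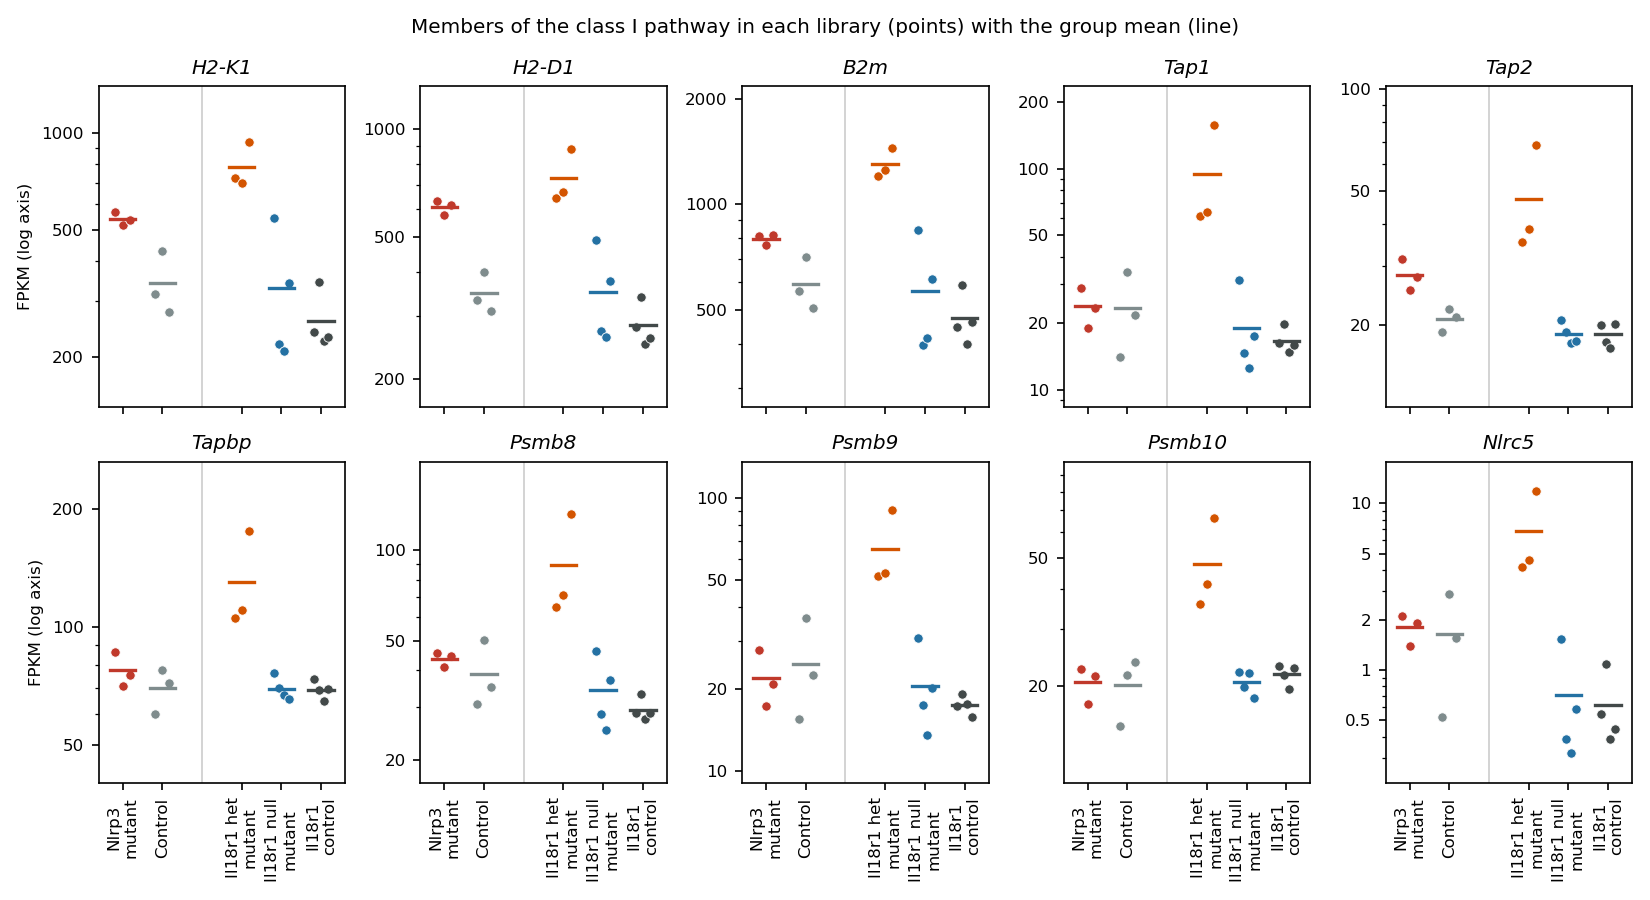
FPKM of each of the 10 members on a log axis, 1 point per library and a line at the group mean, with the first experiment left of the grey line and the second right of it. The het mutants lie above every null mutant and every Il18r1 control in all 10 panels, and 1 het library and 1 null library lie above the rest of their groups.

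The first question was what the Nlrp3 mutant changed with no labelled change of Il18r1. The displayed molecule rose and the rest of the pathway mostly did not pass the test: H2-K1, H2-D1, B2m and Tap2 were higher, and Tap1, Tapbp, the 3 immunoproteasome subunits and Nlrc5 were not called. Of all 13549 genes tested with limma, 28.0% were called higher and 27.6% lower at an adjusted p under 0.05, so 4 of 10 members higher is not far from the share of all genes. The median log2 change of the 10 members was 0.18, beside 0.00 for all genes.

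H2-D1, a classical class I heavy chain, had 630, 576 and 615 FPKM in the Nlrp3 mutants, against 334, 399 and 310 FPKM in the Controls. Every mutant library was above every Control library, and the log2 change was 0.81 ± 0.10 (SE, adjusted p = 0.000315, limma). H2-K1, the other classical heavy chain, had 569, 516 and 534 FPKM in the Nlrp3 mutants and 314, 429 and 276 FPKM in the Controls, again without overlap (log2 change 0.69 ± 0.15, adjusted p = 0.00522). B2m, the light chain, had 813, 767 and 818 FPKM in the Nlrp3 mutants, against 565, 708 and 507 FPKM in the Controls. Its groups did not overlap either, and its log2 change was 0.44 ± 0.12 with an adjusted p of 0.0147. The B2m call was lost when library 1 of the Controls or library 3 of the Nlrp3 mutants was left out, and when every library was scaled to the same total FPKM (log2 change 0.28, adjusted p = 0.0793).

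Tap2, a chain of the peptide transporter, had 31.4, 25.4 and 27.8 FPKM in the Nlrp3 mutants and 19.1, 22.4 and 21.2 FPKM in the Controls, with no overlap (log2 change 0.41 ± 0.09, adjusted p = 0.00534). Its partner chain Tap1 had 29.0, 19.1 and 23.4 FPKM in the Nlrp3 mutants, against 14.1, 34.3 and 21.7 FPKM in the Controls. The mutant libraries of Tap1 all lay inside the range of the Controls. Its log2 change of 0.09 had a 95% interval from -0.56 to 0.75, which leaves room for a change as large as that of Tap2. Of all genes, 32.2% had every mutant library above every Control library, and 4 of the 10 members did.

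The immunoproteasome subunits gave no call. Psmb8, the inducible chymotrypsin-like subunit, had 45.4, 40.9 and 44.4 FPKM in the Nlrp3 mutants, against 30.8, 50.5 and 35.2 FPKM in the Controls. Library 2 of the Controls was the highest of the 6, and without it the log2 change of 0.19 ± 0.16 became 0.39 and passed the test. Psmb9 and Psmb10, the other inducible subunits, had log2 changes of -0.11 (95% interval -0.77 to 0.55) and 0.05 (-0.33 to 0.42). Tapbp, which encodes tapasin, had a log2 change of 0.15 (-0.09 to 0.40) and Nlrc5 one of 0.17 (-0.53 to 0.88). Nlrc5 was spread widely among the Controls, at 0.524, 2.89 and 1.57 FPKM, around 2.12, 1.39 and 1.92 FPKM in the Nlrp3 mutants.

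**Figure D2:**
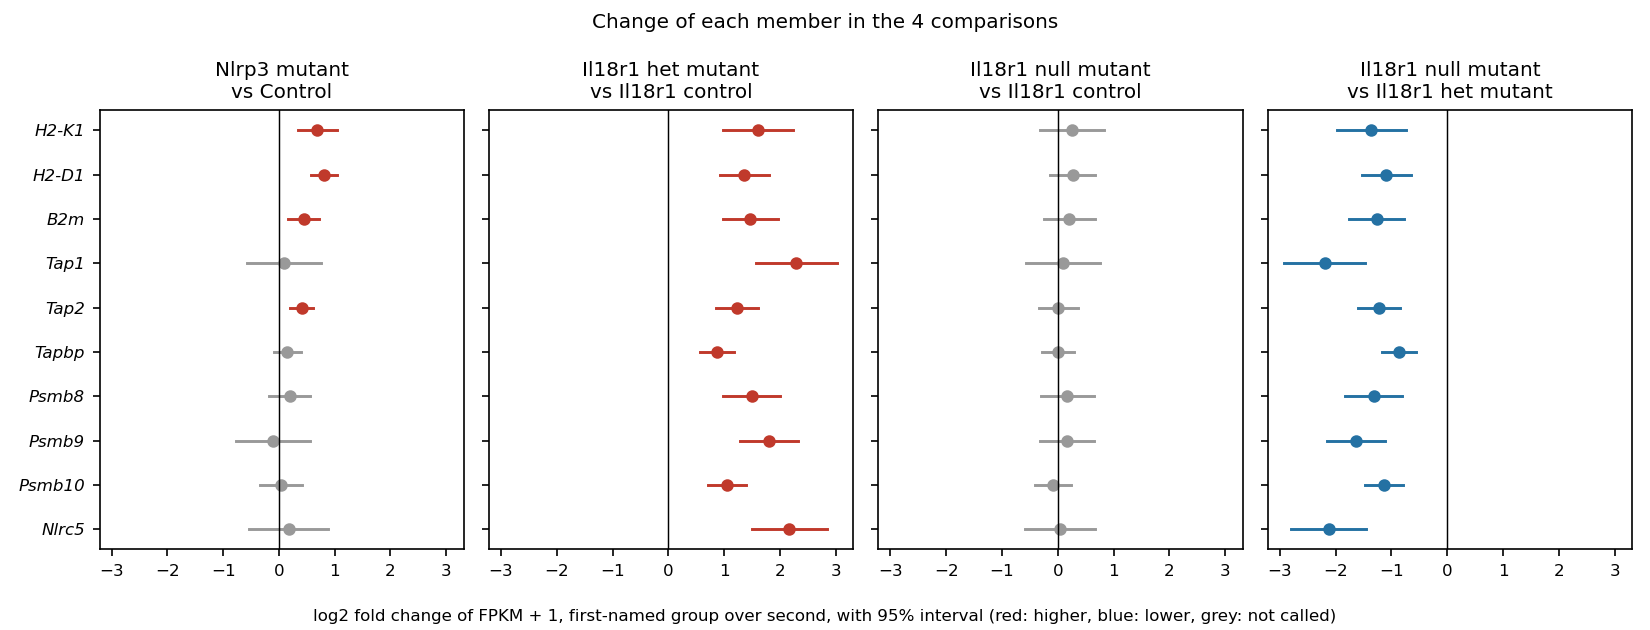
Log2 fold change of FPKM + 1 of each member in the 4 comparisons, with the first-named group over the second and 95% intervals. In the first panel 4 members exclude 0, in the second and the fourth all 10 do, on opposite sides, and in the third none does.

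In the second experiment the Il18r1 het mutant was set against the Il18r1 control. All 10 members rose, from the heavy chains to the transactivator, and no het library overlapped a control library for any of them. Among all 13724 genes tested, 27.3% were called higher, 28.9% lower, and 27.4% were higher without overlap. The members' median log2 change was 1.48, beside -0.02 for all genes, and their adjusted p-values lay between 5.38e-05 and 0.000473 (limma). The rise was uneven, from 0.87 for Tapbp to 2.30 for Tap1 on the log2 scale.

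Tap1 had 61.4, 63.9 and 158 FPKM in the het mutants, against 16.3, 19.8, 14.9 and 15.9 FPKM in the Il18r1 controls. Library 3 of the het mutants was far above the other 2, which were themselves more than 3 times the highest control. The log2 change was 2.30 ± 0.33 (adjusted p = 0.000105) and 1.85 without that library. Nlrc5 had 4.13, 4.61 and 11.9 FPKM in the het mutants and 0.547, 1.09, 0.387 and 0.445 FPKM in the Il18r1 controls, with the same library highest. Nlrc5 entered the test of this experiment only through the het mutants, where it was high. Its log2 change of 2.17 ± 0.31 (adjusted p = 9.89e-05) is damped by the added 1 FPKM, and the ratio of the means, 6.87 ± 4.34 over 0.618 ± 0.322 FPKM (SD, n = 3 and 4), was 11.1. Without library 3 of the het mutants that ratio was 7.08 and the log2 change 1.75, still called.

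The chains of the displayed molecule varied less than Tap1 among the het mutants. H2-K1 had 724, 700 and 936 FPKM in the het mutants, against 239, 344, 224 and 230 FPKM in the Il18r1 controls (log2 change 1.61 ± 0.28, adjusted p = 0.000473). H2-D1 had 643, 668 and 881 FPKM in the het mutants and 281, 339, 251 and 262 FPKM in the Il18r1 controls (log2 change 1.36 ± 0.20, adjusted p = 0.000124). B2m had 1207, 1250 and 1449 FPKM in the het mutants, against 448, 587, 400 and 462 FPKM in the Il18r1 controls (log2 change 1.47 ± 0.23, adjusted p = 0.000176). The 3 chains thus stood at 2.58 to 3.03 times their control means, with library 2 the highest control in each.

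The immunoproteasome rose as a set of 3. Psmb9 had 51.9, 53.3 and 91.0 FPKM in the het mutants, against 17.3, 19.2, 17.6 and 15.7 FPKM in the Il18r1 controls (log2 change 1.80 ± 0.24, adjusted p = 5.38e-05, the smallest of the members). Psmb8 had 64.7, 71.3 and 132 FPKM in the het mutants and 28.7, 33.2, 27.4 and 28.8 FPKM in the Il18r1 controls (log2 change 1.49 ± 0.23). Psmb10, which lies outside the histocompatibility complex, had 36.0, 41.3 and 66.1 FPKM in the het mutants, against 23.1, 21.7, 19.6 and 22.8 FPKM in the Il18r1 controls (log2 change 1.05 ± 0.16). Libraries 1 and 2 of the het mutants were close to each other for all 3 subunits, and library 3 was higher.

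Tap2 and Tapbp, the remaining loading genes, rose as well. Tap2 had 35.4, 38.6 and 68.1 FPKM in the het mutants, against 20.1, 17.9, 17.2 and 20.1 FPKM in the Il18r1 controls (log2 change 1.23 ± 0.17). Tapbp had 105, 110 and 176 FPKM in the het mutants and 73.7, 68.9, 64.6 and 69.6 FPKM in the Il18r1 controls (log2 change 0.87 ± 0.14). All 10 calls of this comparison were also made in each of the 11 fits that left out 1 library. Without het library 3 the log2 changes were 1.48 for H2-K1, 1.22 for H2-D1, 0.94 for Tap2 and 0.63 for Tapbp. Those of Psmb8, Psmb9 and Psmb10 were then 1.18, 1.54 and 0.80.

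The third comparison set the mutant labelled Il181r-/- against the Il18r1 control. None of the 10 members was called, and none had an unadjusted p under 0.05 (limma). Adjusted p-values lay between 0.715 and 0.993. Few genes of the whole table were called here, 1.87% higher and 0.102% lower, so the absence of calls is shared by most genes. Log2 changes lay between -0.08 for Psmb10 and 0.27 for H2-D1, and the upper ends of the 95% intervals, 0.24 for Psmb10 to 0.82 for H2-K1, were below the het mutant's change for each member.

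The null libraries were not alike. H2-K1 had 544, 220, 209 and 341 FPKM in the null mutants, against 239, 344, 224 and 230 FPKM in the Il18r1 controls. Tap1 had 31.3, 14.6, 12.5 and 17.5 FPKM in the null mutants and 16.3, 19.8, 14.9 and 15.9 FPKM in the Il18r1 controls. Nlrc5 had 1.55, 0.389, 0.317 and 0.587 FPKM in the null mutants, against 0.547, 1.09, 0.387 and 0.445 FPKM in the Il18r1 controls. In all 3 genes library 1 was above every control, and the other null libraries lay in or near the range of the controls.

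Null library 1 was the highest null library for all 10 members, above every Il18r1 control for 9 of them, Psmb10 excepted, and below every het mutant for all 10. B2m was at 845 FPKM in it, against 396, 416 and 614 FPKM in the other null mutants and at most 587 FPKM in a control. Psmb8 was at 46.3 FPKM in it, against 28.4, 25.2 and 37.0 FPKM in the other null mutants and at most 33.2 FPKM in a control. With null library 1 left out, no member was called either: H2-D1 and Psmb8 had log2 changes of 0.09 and 0.02, and the other 8 lay between -0.16 and -0.01.

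Set against the het mutant, the null mutant had lower levels of all 10 members, without overlap. Of all genes, 26.8% were called higher, 26.5% lower, and 26.0% were lower without overlap. The members' median log2 change was -1.29, beside 0.01 for all genes, with Tap1 at -2.20 ± 0.33 and Nlrc5 at -2.12 ± 0.31 the furthest down and Tapbp at -0.86 ± 0.14 the least. Adjusted p-values lay between 9.76e-05 and 0.0017 (limma). Any 2 comparisons of the second experiment share a group of libraries and are not independent. All 10 calls were kept with null library 1 and het library 3 both left out, an alternative chosen after seeing the data, and with only the null libraries that had Xist, as all het mutants had, or only those with Y-linked transcripts.

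**Figure D3:**
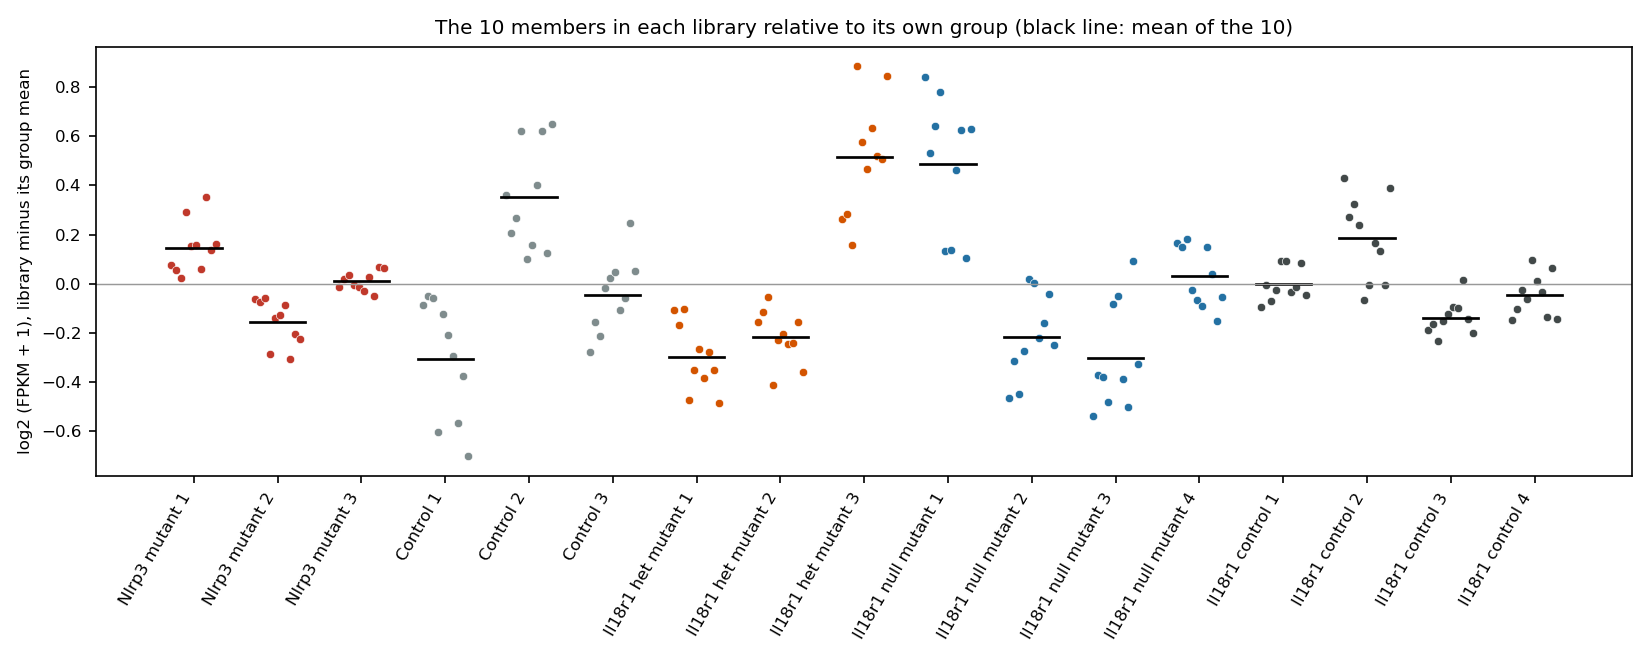
Deviation of each of the 10 members in each library from the mean of its own group on the log2 (FPKM + 1) scale, with a black line at the mean of the 10. Het library 3 and null library 1 have all 10 points above 0, with means of 0.51 and 0.49. Control library 2 and Nlrp3 mutant library 1 also have all 10 above 0, with means of 0.35 and 0.15. Nlrp3 mutant library 2, Control library 1 and het libraries 1 and 2 have all 10 below 0.

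Within groups the members moved together. Het library 3 was the highest of its group for all 10 members, by 0.16 to 0.88 above the group mean on the log2 scale, and null library 1 by 0.10 to 0.84. Relative depth was 0.747 in het library 3, the lowest of its table, and 1.15 in null library 1, the highest, and its part in their levels was not tested. Among the Controls library 2 was highest for 9 members and library 1 lowest for 7, and among the Nlrp3 mutants library 1 was highest for 9 and library 2 lowest for all 10. Among the Il18r1 controls library 2 was highest for 7 members. With the group means removed, the correlation over the 17 libraries of each member with the mean of the other 9 lay between 0.66 for Psmb10 and 0.99 for Tap1, a description of libraries that differ in depth and cell make-up.

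The 5 genes outside the list whose within-group deviations followed the members' mean most closely, of 13443 compared over the 17 libraries, were Tgtp2 (r = 0.95), Pyhin1 (0.94), Igtp (0.93), Uba7 (0.93) and Gbp4 (0.93). Tgtp2, Igtp and Gbp4 encode interferon-inducible GTPases, Uba7 the activating enzyme for the ubiquitin-like protein ISG15, and Pyhin1 a nuclear protein of the interferon-inducible p200 family. Igtp had 83.6, 77.0 and 321 FPKM in het mutants 1, 2 and 3, and averaged 10.9 ± 5.01 FPKM in the null mutants and 10.1 ± 1.23 FPKM in the Il18r1 controls (SD, n = 4 each). Between groups the 5 did not all do what the members did: Pyhin1 was not called in het mutant against Il18r1 control (log2 change -0.12, adjusted p = 0.546) and was lower in Nlrp3 mutant against Control (-0.46, adjusted p = 0.0303).

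Each immunoproteasome subunit replaces a subunit of the standard proteasome, Psmb8 replacing Psmb5, Psmb9 replacing Psmb6 and Psmb10 replacing Psmb7, so their ratio within a library does not depend on the scaling between libraries. The ratio of Psmb8 to Psmb5 was 0.618, 0.673 and 1.25 in the het mutants, 0.425, 0.236, 0.204 and 0.319 in the null mutants, and 0.246, 0.288, 0.222 and 0.239 in the Il18r1 controls. Every het library was above every other library, and in het library 3 the inducible subunit exceeded the standard one. The ratio of Psmb9 to Psmb6 averaged 0.665 ± 0.270 in the het mutants (SD, n = 3), 0.188 ± 0.076 in the null mutants and 0.148 ± 0.009 in the Il18r1 controls (SD, n = 4 each). The ratio of Psmb10 to Psmb7 averaged 0.619 ± 0.216 in the het mutants (SD, n = 3), 0.256 ± 0.035 in the null mutants and 0.261 ± 0.025 in the Il18r1 controls (SD, n = 4 each). Het mutant and Il18r1 control differed in the 3 log2 ratios by 1.70, 2.10 and 1.20 in this order, each with p = 0.0286 in a two-sided exact permutation test, the smallest it can give, and 0.0572 after adjustment over the 12 ratio tests. Without het library 3 these differences were 1.38, 1.79 and 0.93. Null against het mutant gave differences of -1.50, -1.83 and -1.23 with the same exact p-values, and null mutant against Il18r1 control gave 0.20, 0.26 and -0.03 with overlapping groups (exact p = 0.514, 0.457 and 0.800).

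In the first experiment the ratio of Psmb8 to Psmb5 was 0.438, 0.431 and 0.465 in the Nlrp3 mutants, against 0.259, 0.417 and 0.287 in the Controls. The groups did not overlap, with a difference of 0.50 in log2, although Psmb8 itself was not called. With 3 libraries a group the exact test cannot go below p = 0.1, which is the value it gave (0.171 adjusted). The other ratios overlapped, with differences of 0.23 and 0.17 (exact p = 0.6 for both). Library 1 of the Controls decided their direction, since both differences were below 0 without it, at -0.07.

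**Figure D4:**
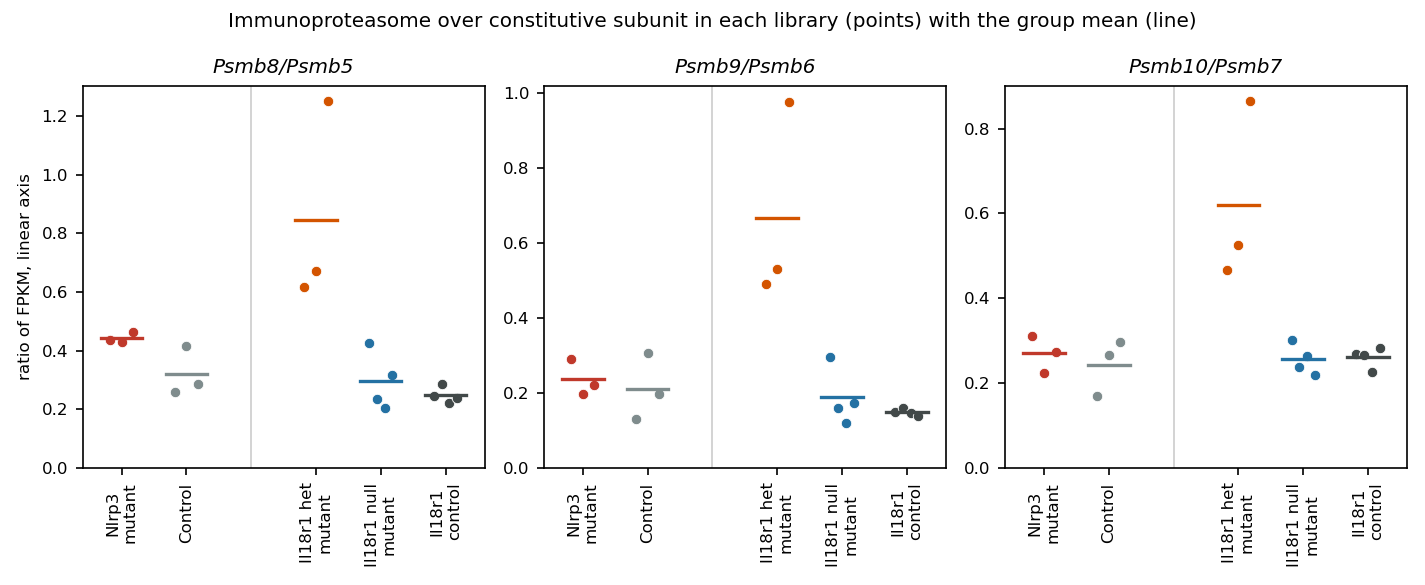
Ratio of the FPKM of each immunoproteasome subunit to that of the constitutive subunit it replaces, on linear axes from 0, 1 point per library and a line at the group mean. All het libraries lie above 0.46 in each panel and every other library below it, except 1 Nlrp3 mutant library at 0.465 in the first panel.

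The standard counterparts went the other way by a little. Psmb6 averaged 99.9 ± 6.27 FPKM in the het mutants (SD, n = 3) and 118 ± 2.85 FPKM in the Il18r1 controls (SD, n = 4), a log2 change of -0.24 ± 0.05 (adjusted p = 0.00259). Psmb5 had a log2 change of -0.17 ± 0.05 (adjusted p = 0.0098), and Psmb7 one of -0.11 that was not called (adjusted p = 0.0883). In Nlrp3 mutant against Control Psmb6 and Psmb5 were lower as well, by 0.34 and 0.30 in log2 (adjusted p = 0.00117 and 0.00196). Of the 11 other subunits of the proteasome core, none was called in het mutant against Il18r1 control (median log2 change -0.07) and 6 were lower in Nlrp3 mutant against Control (median -0.17), and with every library scaled to the same total FPKM 9 and 11 were lower.

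That scaling matters because total FPKM was higher in the Nlrp3 and het mutants: it moved the median of all genes to -0.15 in Nlrp3 mutant against Control, -0.16 in het mutant against Il18r1 control and 0.19 in null against het mutant. The calls over all genes in Nlrp3 mutant against Control, 3788 higher and 3740 lower, became 2400 and 5601. Those in het mutant against Il18r1 control, 3752 and 3964, became 2502 and 6464, and those in null against het mutant, 3675 and 3636, became 6940 and 2052. The 10 calls of the het comparison and of the null against het comparison were made on either scale.

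Genes around the members were counted in lists chosen with earlier results of these data known. Of all genes, 27.3% were called higher and 28.9% lower in het mutant against Il18r1 control. The shares were 28.0% and 27.6% in Nlrp3 mutant against Control, and 1.87% and 0.102% in null mutant against Il18r1 control. Of 18 other class I and class I-like heavy chains, 15 could be tested in the second experiment. In het mutant against Il18r1 control 12 were higher and 2 lower, with a median log2 change of 1.15, and 10 and 2 with equal total FPKM. Without het library 3 and null library 1, 14 could be tested, 10 were higher and 2 lower, and the median was 0.67. By smallest p these began with Azgp1, a secreted class I-like protein (2.24 ± 0.30 FPKM in the het mutants against 0.243 ± 0.172 FPKM in the Il18r1 controls, log2 change 1.39 ± 0.12, adjusted p = 2e-06). No Il18r1 control reached 1 FPKM, so Azgp1 entered the test only through mutant libraries, the het mutants among them, where it was high. Hfe, which controls iron uptake, and H2-T22 were also higher, by 0.43 and 1.58 in log2. Cd1d1, which presents lipids and does not need TAP, was lower, at 8.07 ± 0.76 FPKM in the het mutants and 13.6 ± 0.27 FPKM in the Il18r1 controls (log2 change -0.69 ± 0.07, adjusted p = 5.54e-06). The largest rises, named after their values were seen, were those of H2-Q7 (2.99) and H2-Q6 (2.78), which encode Qa-2 type chains.

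H2-Q7 also varied widely within groups. It had 65.5, 69.7 and 102 FPKM in the het mutants, 55.5, 5.21, 2.91 and 18.4 FPKM in the null mutants, and 5.16, 25.8, 5.22 and 8.28 FPKM in the Il18r1 controls. Null library 1 and control library 2, the highest of their groups here, were also the highest for H2-K1. In Nlrp3 mutant against Control 13 of the 18 could be tested and 8 were higher and 2 lower, or 6 and 2 with equal total FPKM. Azgp1 was again first (2.39 ± 0.46 FPKM in the Nlrp3 mutants and 0.140 ± 0.039 FPKM in the Controls, adjusted p = 5e-05), Mr1 (0.43) and H2-T23 (0.64) were higher and Cd1d1 (-0.43) lower. Azgp1 entered the test of this experiment only through the Nlrp3 mutants, where it was high. In null mutant against Il18r1 control the 1 call was H2-Q10, a secreted class I protein, at 2.26 ± 0.71 FPKM in the null mutants and 0.418 ± 0.30 FPKM in the Il18r1 controls (log2 change 1.20 ± 0.16, adjusted p = 0.00148). Its highest value was 0.869 FPKM in the Il18r1 controls and 0.759 FPKM in the het mutants. H2-Q10 therefore entered the test only through the null mutants, where it was high.

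Of 9 peptide trimming, chaperone and loading genes, 3 were higher in the het mutant and none lower, with a median log2 change of 0.03, or 2 and 2 with equal total FPKM. With 27.3% of all genes higher and 28.9% lower, 3 of 9 higher is not far from the share of all genes. Tapbpl, which encodes the tapasin-related peptide editor TAPBPR, had 19.1, 22.6 and 35.6 FPKM in the het mutants, against 11.2, 10.0, 8.98 and 10.9 FPKM in the Il18r1 controls (log2 change 1.20 ± 0.16, adjusted p = 5.81e-05). Erap1, the aminopeptidase that trims class I peptides, rose by 0.67 ± 0.09 (adjusted p = 9.03e-05), and the translocon gene Sec61a1 by 0.20. In the Nlrp3 mutant Tapbpl and Erap1 were higher too, by 0.45 and 0.23 in log2, while Calr, Hspa5 and Pdia3, chaperones of the endoplasmic reticulum, were lower. Of 9 proteasome activator and assembly genes, Psme1 and Psme2, which encode the interferon-inducible PA28 activator, rose by 0.46 and 0.41 in the het mutant and 3 fell, Psmg2, Psmg3 and Psme3. None of the 9 rose in the Nlrp3 mutant and 4 fell, beside 28.0% of all genes higher and 27.6% lower in that comparison.

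Among 23 regulators of class I genes and of interferon-gamma signalling, 22 could be tested and 10 were higher and 4 lower in the het mutant, with a median log2 change of 0.12, or 8 and 7 with equal total FPKM. The shares of all genes were 27.3% higher and 28.9% lower. Irf1, an activator of class I and immunoproteasome genes, had 116, 104 and 206 FPKM in the het mutants, against 32.4, 37.3, 32.4 and 36.2 FPKM in the Il18r1 controls (log2 change 1.94 ± 0.18, adjusted p = 3.99e-06). Library 3 of the het mutants was the highest for Irf1, as it was for the members. The receptor chains Ifngr1 and Ifngr2 rose by 0.65 and 0.32. Ifng itself was at or below 0.179 FPKM in each of the 17 libraries and could not be tested.

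In the Nlrp3 mutant 6 regulators were higher and 6 lower of 22, shares close to the 28.0% and 27.6% of all genes, or 3 and 8 with equal total FPKM. Ifngr1 averaged 142 ± 7.28 FPKM in the Nlrp3 mutants and 83.3 ± 4.41 FPKM in the Controls (SD, n = 3 each), a log2 change of 0.76 ± 0.06 (adjusted p = 4.81e-05), and Jak2 rose by 0.34. Socs1, an inhibitor of this pathway, averaged 6.20 ± 0.40 FPKM in the Nlrp3 mutants and 13.9 ± 2.54 FPKM in the Controls (log2 change -1.04 ± 0.13, adjusted p = 0.000309), and Nfya, a subunit of the CCAAT-binding factor NF-Y, was lower by 0.39. Irf1 was not called (log2 change 0.41, adjusted p = 0.0865). In null mutant against Il18r1 control none of the 22 was called (limma).

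**Figure D5:**
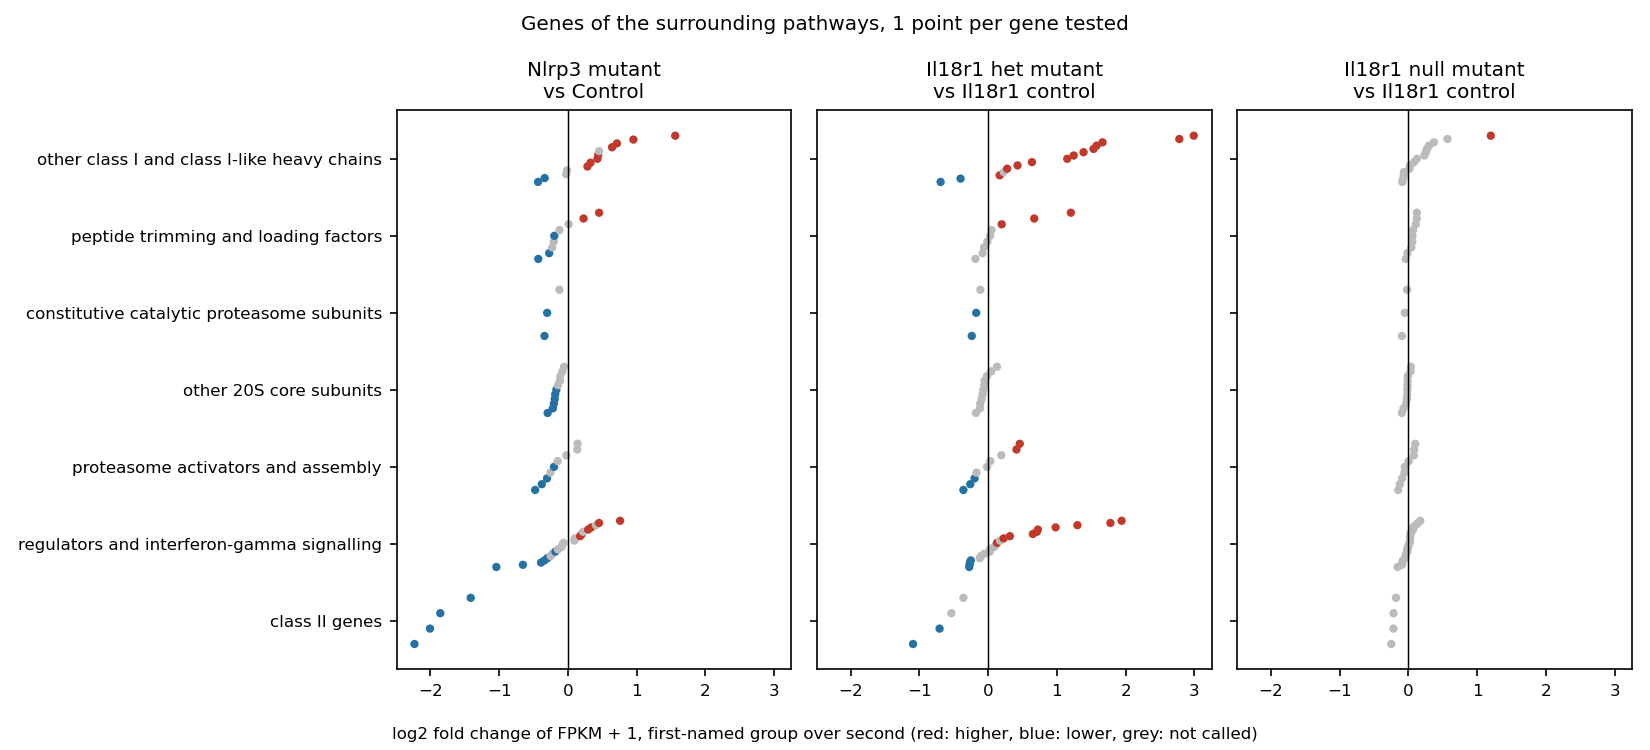
Log2 fold change of FPKM + 1 of the listed genes around the members, 1 point per gene, in the 3 comparisons with a control, the first-named group over the second. Red points, higher at an adjusted p under 0.05, are frequent among the other heavy chains and regulators of the het mutant, class II genes lie below 0 in the first 2 panels, and the third panel holds 1 red point.

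Genes next to the members in the histocompatibility complex were called in both directions. Of 75 other genes annotated between H2-K1 and H2-D1, 59 were tested in the second experiment, with 16 higher and 16 lower in het mutant against Il18r1 control and a median log2 change of -0.02, shares close to the 27.3% and 28.9% of all genes. On either side of the block of Psmb9, Tap1, Psmb8 and Tap2, which rose by 1.23 to 2.30, some class II genes were lower: H2-Ob by 1.42, H2-DMb2 by 0.96 and H2-Oa by 0.66 (adjusted p = 5.47e-07, 0.00133 and 0.00122), and H2-Aa, given with the class II list. H2-DMa (log2 change 0.06), H2-DMb1 (-0.28) and H2-Ab1 (-0.36) were not called. In Nlrp3 mutant against Control H2-Ob, H2-DMb2 and H2-Oa were lower, by 1.05, 0.83 and 0.77, while Tap2 was higher. No Nlrp3 mutant library reached 1 FPKM for H2-Ob, H2-DMb2 or H2-Oa. These genes entered the test of that experiment only through the Controls, where they were high. H2-DMa (log2 change -0.71), H2-DMb1 (-1.13) and H2-Ab1 (-1.41) were called lower there as well. The class II list gave 4 of 4 tested genes lower in the Nlrp3 mutant, with Cd74 at 36.9 ± 7.28 FPKM in the mutants and 175 ± 20.6 FPKM in the Controls (log2 change -2.23 ± 0.15, adjusted p = 2.22e-05). In the het mutant 2 of the 4 were lower, Cd74 (-1.09) and H2-Aa (-0.71), and all 4 with het library 3 and null library 1 left out.

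Markers of blood and tissue cells moved in the same comparisons, and in bulk tissue fewer cells of a type and less RNA per cell cannot be told apart. Beside the counts that follow, 27.3% of all genes were higher and 28.9% lower in the het mutant. In the null mutant 1.87% were higher and 0.102% lower. All 4 leukocyte markers (Ptprc, Laptm5, Coro1a and Cd52) were higher in the het mutant, where their summed level was 424 to 608 FPKM, and 3 of 4 in the null mutant, with sums of 274 to 352 FPKM, against 183 to 204 FPKM in the Il18r1 controls. All 7 tested neutrophil markers were higher in the het mutant (sums of 9914 to 19100 FPKM) and in the null mutant (2110 to 2899 FPKM) than in the Il18r1 controls (204 to 305 FPKM), and 8 of 8 macrophage markers in the het mutant (593 to 757 FPKM) and 2 of 8 in the null mutant (227 to 309 FPKM), against 189 to 207 FPKM in the Il18r1 controls. All 4 tested B cell markers were lower in the het mutant, and of 9 tested T and NK cell markers 5 were lower and 1 higher, with sums of 7.20 to 14.9 FPKM in the het mutants, 15.6 to 28.8 FPKM in the null mutants and 17.4 to 21.4 FPKM in the Il18r1 controls. Of 4 tested dendritic cell markers 1 was higher and 2 were lower in the het mutant, and none was called in the null mutant. All 7 epithelial markers were higher in the het mutant, and 5 of 6 fibroblast and smooth muscle markers, 3 of 6 endothelial markers and 5 of 5 tested erythroid markers lower.

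In the first experiment 7 of 7 tested neutrophil markers (sums of 9242 to 14860 FPKM in the Nlrp3 mutants and 358 to 1277 FPKM in the Controls), 5 of 8 macrophage markers (404 to 468 FPKM in the Nlrp3 mutants and 169 to 193 FPKM in the Controls) and 6 of 7 epithelial markers were higher. All 4 tested B cell markers, 3 of 5 tested T and NK cell markers, 5 of 6 fibroblast and smooth muscle markers, 4 of 6 endothelial markers and 4 of 5 tested erythroid markers were lower. Among 3 tested dendritic cell markers 1 was higher and 1 lower. Of all genes 28.0% were higher and 27.6% lower. Of the leukocyte markers 1 of 4 was higher, with sums of 241.5 to 403.3 FPKM in the Nlrp3 mutants and 167.3 to 260.1 FPKM in the Controls. The difference between the Nlrp3 mutant and het mutant comparisons, which come from separately tabulated experiments, was not tested. None of the leukocyte, neutrophil, macrophage, B cell or T and NK cell markers in the tables was at 0 in all libraries of a group. The part of these cell types in the members' levels was not tested.

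The authors' deposited tables for the second experiment, made from counts, gave the same calls. In the authors' deposited table of het mutant against Il18r1 control all 10 members had an adjusted p under 0.05, with log2 fold changes from 0.94 for Tapbp to 3.60 for Nlrc5. In the authors' deposited table of null mutant against Il18r1 control none did, with log2 fold changes of 0.01 to 0.34, and in the authors' deposited table of null against het mutant all 10 did, from -0.92 for Tapbp to -3.39 for Nlrc5. Nlrc5 was the member for which the count scale and the FPKM + 1 scale differed most.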

How the data were processed

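RNA of whole mouse lung was measured in 17 samples, per the labels' protocols from stranded mRNA libraries read from both ends. STAR and the builds GRCm38 and mm10 are named in the submitters' processing notes. The counting tool, the annotation and any scaling between libraries are not given in the sources used here. Per experiment the authors deposited 1 table whose values were taken as FPKM, inferred from the values since the headers name no unit. Lines with date-like names, 27 in either one, were left out. Absolute depth is unknown and no counting interval was made. Per the file headers, the authors deposited for the second experiment mean normalized counts (a signal), log2 fold changes, their standard errors (entered as a score), p-values and adjusted p-values, and lines in them that name no gene were left out.

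Genes with 3 or more libraries at 1 FPKM entered a limma fit (version 3.58.1 in R 4.3.3, trend on) of log2(FPKM + 1), two-sided, adjusted by Benjamini-Hochberg over all genes tested, at a threshold of 0.05. This scale understates changes of low genes. The experiments, of 6 and 11 libraries, were fitted separately. Subunit ratios were tested by exact permutation. The fit was tested on simulated data. Python 3.11.15, pandas 2.3.3 and matplotlib 3.10.9 were used for promoters and figures.

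The 10 members, the gene lists and the tests were chosen with earlier results of these data known. Besides the members, the text names up to 4 genes with the smallest p of a list in a comparison, not all of them, the 5 genes most like the members, and genes near them on chromosome 17. Alternatives were rescaling by the median of ratios or to equal total FPKM, a pseudocount of 0.1, another filter (none, or a mean of 5 FPKM), a robust fit weighting the arrays, a block of replicate numbers, fits restricted to the groups compared, leaving out each library, and null libraries split by sex-linked transcripts. A gene of the regulator list is not reported here.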

Additional observations from a re-analysis of the deposited data

Results flagged for a closer look

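H2-K1 in the Il18r1 control group stood out for 1 sample far from the others: library 2 had 344 FPKM, against 224 to 239 FPKM in the other 3, a gap of 0.874 of the group's whole range, more than chance gives in 95% of groups of 4. It was the 1 such case among 20 groups of 4 examined, and chance flags about 1 in 20.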

How the results depend on the processing

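All 10 members stayed called in het mutant against Il18r1 control and in null against het mutant, and none was called in null mutant against Il18r1 control, under every alternative run, except that with a mean of at least 5 FPKM as filter Nlrc5 was not tested and the other 9 were called. With equal total FPKM 3 members were called in Nlrp3 mutant against Control. With 1 library left out, the members called in Nlrp3 mutant against Control numbered 3 to 5. Log2 changes then spanned -0.209 to 0.402 for Tap1, -0.39 to 0.203 for Psmb9, -0.141 to 0.17 for Psmb10 and -0.178 to 0.498 for Nlrc5 in that comparison. In null mutant against Il18r1 control they spanned -0.0295 to 0.43 for H2-K1, -0.0104 to 0.353 for B2m, -0.162 to 0.259 for Tap1, -0.0364 to 0.04 for Tap2, -0.0372 to 0.0383 for Tapbp, -0.044 to 0.332 for Psmb9 and -0.162 to 0.177 for Nlrc5. Log2 ratio differences spanned -0.0740 to 0.548 for Psmb9 to Psmb6 and -0.0693 to 0.333 for Psmb10 to Psmb7 in Nlrp3 mutant against Control, and -0.113 to 0.0378 for Psmb10 to Psmb7 in null mutant against Il18r1 control.

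Signs also changed under other settings, each time for a member that was not called. In Nlrp3 mutant against Control, equal total FPKM gave -0.0665 for Tap1, -0.0114 for Tapbp and -0.111 for Psmb10, and the robust fit -0.11 for Tap1. In null mutant against Il18r1 control the robust fit gave -0.0199 for Tap1 and -0.0711 for Nlrc5, and the null libraries with Y-linked transcripts 0.017 for Psmb10. Null library 1 and het library 3 both left out, an alternative chosen after seeing the data, gave -0.0295 for H2-K1, -0.0104 for B2m, -0.162 for Tap1, -0.0364 for Tap2, -0.0372 for Tapbp, -0.044 for Psmb9 and -0.162 for Nlrc5. Over all genes, calls in null mutant against Il18r1 control numbered 270, but 177 with a mean of at least 5 FPKM and 420 with the robust fit. The cause was not tested.

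Correlations of the deviations of same-numbered samples lay between -0.101 and 0.269. Differently numbered samples were not compared, so these values do not decide whether replicate numbers pair the samples. With replicate numbers as a block, 4, 10, 0 and 10 members were called in the order of comparisons in the report, as without the block. Of all genes 7009, 7278, 225 and 6807 were called with it, against 7528, 7716, 270 and 7311.

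What a change near 0 allows is given by its interval in the report, and absolute depth is unknown.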
